A study of Mus musculus with 6 samples.

Results

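The genes followed here are 46 members of the interferon response, chosen by name as genes that interferons induce together with the receptors and transcription factors that carry the interferon signal. All 46 were on the arrays, among 34789 gene names. They were the IFIT and ISG15 group, the OAS, MX and other antiviral effectors, the sensors of foreign nucleic acid, a mixed group of further induced genes, the GTPases of cell-autonomous defence, 2 genes of antigen presentation, 5 transcription factors and 3 receptor chains. The rule used gene names and no value on these arrays as a threshold.

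RNA was measured in mProx24, a cell line of the mouse proximal tubule (C57B6 strain), on 6 single-colour Agilent arrays with 1 array per condition. The triple stimuli condition combined high glucose, free fatty acids given as 150 µM palmitate for 9 hours with 0.15% bovine serum albumin, and 1% oxygen for 12 hours before the palmitate. A further condition added 0.4 µg/ml rapamycin, which inhibits the growth kinase mTORC1, for 12 hours before palmitate, and hypoxia alone was 1% oxygen. High glucose alone, free fatty acids alone and control were kept at 20% oxygen. Neither the glucose concentrations nor the vehicle of rapamycin is given in the sources used here.

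The labels of the arrays for high glucose alone and free fatty acids alone contradict each other. Array A is labelled high glucose in its scanner file, but its values stand under high FFAs in the deposited value table, and the reverse holds for array B. No stimulus is assigned to either array below. Under both readings the triple stimuli arrays, with and without rapamycin, also received the stimulus of array A and that of array B.

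Interferons of type I bind a receptor made of the IFNAR1 and IFNAR2 chains, which activates a complex that holds STAT2 and IRF9. This complex binds a DNA element called the ISRE in the promoters of antiviral genes, whereas interferon gamma acts on an element called GAS. Tubular cells carry these receptors, make type I interferon after sensing viral RNA or misplaced DNA, and keep a low level of many of the target genes without infection.

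Levels are given as log2 signal relative to the 75th percentile of the array, so that 0 is the 75th percentile itself. They compare arrays for 1 probe and do not rank genes, since probes differ in brightness. A gene was called higher or lower at a 2-fold difference, a log2 difference of 1. No condition had a second array, so no value has a replicate error, and no test was run. The spread between repeated spots of the same probe, a median SD of 0.0654 on the log2 scale within an array, covers the array surface only. A difference between 2 arrays below about 0.0925, the same spread carried to a difference, is within that technical scatter. This limit is 1 SD for bright probes, so a wider difference or gap can still be scatter. Dim probes spread more, with SDs of 0.42 to 0.71 between the Tap1 spots of an array. Per array, 40.3% to 43.8% of 59305 non-control spots passed the scanner software's call of well above background, and 0 were saturated. All 6 arrays lay on 1 slide, with the 3 arrays at 1% oxygen in its second row and the 3 at 20% in its first, and oxygen cannot be told apart from that row.

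Of the 46 members, 29 were well above background on all 6 arrays, 7 on some arrays and 10 on none. The 10 were Ifit1, Oas2, Oas3, Mx1, Mx2, Ifitm3, Dhx58, Zbp1, Ifi44 and Tap1, among them classical markers of an interferon response. Usp18 (array B), Rsad2 (array A), Oasl2 and Gbp3 (control) and Irf7 (triple stimuli) were each measured on 1 array only, Oas1a on 2 and Cmpk2 on 4. Of the members, 11 were at least 2-fold different in at least 1 of 6 comparisons. These were Ifit3, Isg20, Oasl1, Cmpk2, Samd9l, Xaf1, Parp14, Gbp2, Igtp, Irgm1 and Irf7. The comparisons share arrays: the control array stands in 4 of them and the triple stimuli array in 3.

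**Figure D1:**
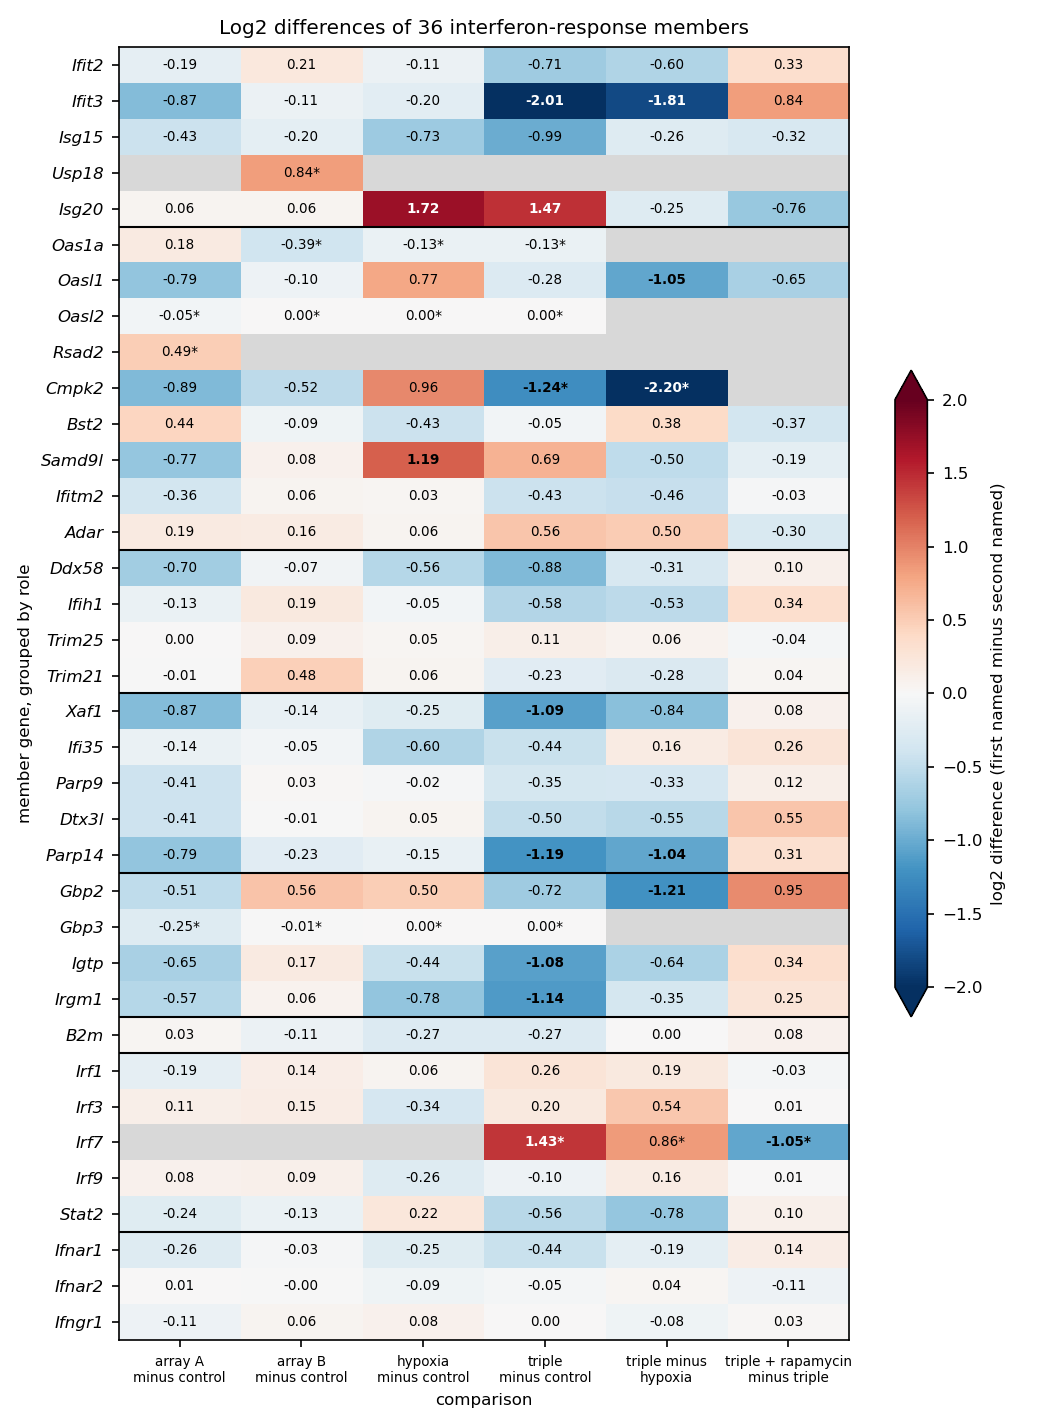
Log2 differences of the 36 members well above background on at least 1 array, in rows grouped by role, for the 6 comparisons in columns, each the first named condition minus the second. Red is higher and blue lower in the first named condition, bold values are at least 2-fold, an asterisk marks a bound because 1 array was not well above background (a bound of 0.00 means that no difference could be measured), and grey cells have neither array above background. The bold blue values lie in the 2 columns for triple stimuli against control and against hypoxia and, for Irf7, in the rapamycin column.

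Apart from Ifna2 in hypoxia, the ligands were near or below the detection limit. Ifnb1, the first interferon made by most infected cells, was not well above background on any array, and neither were Ifna4, Ifnk, Ifne and Ifng. Ifna1 was well above background on array A alone. The lambda interferon Ifnl3 (array name Il28b) was well above background on 3 of 6 arrays. The brighter of 2 Ifna2 probes, named here after its values were seen, stood at 0.19 in hypoxia. It lay between -5.72 and -5.19 on the other stimulus arrays and at -5.82 in control. It was well above background in hypoxia only, a difference from control of at least 3.84, seen in 1 spot on 1 array. Alpha interferon genes are close copies of each other, so the gene behind that spot is uncertain. The probes of Ifna1 (-4.03) and Ifna4 (-5.03) were dim in hypoxia. Whether the Ifna2 value is an artefact of the spot was not tested. The dimmer Ifna2 probe is not reported here.

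The receptors were measured on every array and none was at least 2-fold different in any comparison. Ifngr1, the ligand-binding chain for interferon gamma, had levels of 4.51 in triple stimuli, 4.54 with rapamycin, 4.59 in hypoxia, 4.40 on array A, 4.56 on array B and 4.51 in control. Its range over the arrays was thus 0.19 log2 units. Ifnar2 stood at 2.18 in triple stimuli, 2.08 with rapamycin, 2.14 in hypoxia, 2.24 on array A, 2.23 on array B and 2.23 in control, with the 3 arrays at 1% oxygen all below the 3 at 20% by a gap of 0.04, which is less than the scatter of repeated spots. Ifnar1, the other chain of the type I receptor, was lowest in triple stimuli on its brightest probe, at 1.41, with 1.60 in hypoxia, 1.59 on array A, 1.82 on array B, 1.55 with rapamycin and 1.85 in control. Its other probes, both well above background on every array, were lowest elsewhere, 1 in hypoxia (-2.70, with -2.34 in triple stimuli and -2.23 in control) and 1 on array A (-1.13, with -0.86 in triple stimuli and -0.69 in control).

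Among the transcription factors, Irf7 was the only one at least 2-fold different. Irf7, the factor that amplifies type I interferon production and is itself induced by interferon, was at -2.22 in triple stimuli and well above background there alone. It lay at -4.19 in hypoxia, -4.31 on array A, -4.55 on array B, -3.70 with rapamycin and -4.09 in control, all dim. Triple stimuli was therefore higher than control by at least 1.43 log2 units, at least 2.70-fold, and triple stimuli with rapamycin was at least 2.06-fold lower than triple stimuli without it. With another background correction (normexp) these differences were 0.80 and -0.58, under 2-fold.

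The other factors moved less. Stat2, the subunit of the ISRE-binding complex that carries its activation domain, stood at 1.83 in triple stimuli, 1.94 with rapamycin, 2.61 in hypoxia, 2.15 on array A, 2.26 on array B and 2.39 in control. It was thus highest in hypoxia and lowest in triple stimuli, 0.78 apart. Irf9, its DNA-binding partner, ranged between 0.57 in hypoxia and 0.93 on array B, with 0.92 on array A, 0.73 in triple stimuli, 0.75 with rapamycin and 0.84 in control. Irf1, a factor induced by interferon gamma, was at 4.23 in triple stimuli, 4.20 with rapamycin, 4.04 in hypoxia, 3.79 on array A, 4.12 on array B and 3.98 in control. Irf3, the factor that viral sensing activates without new synthesis, was low in hypoxia only, at 3.24, against 3.69 on array A, 3.73 on array B, 3.77 in triple stimuli, 3.78 with rapamycin and 3.58 in control.

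Triple stimuli against control was the comparison in which the induced genes differed most often. Of 34 measured members, 6 were at least 2-fold lower (17.6%) and 2 at least 2-fold higher (5.88%), where 1.74% of 17803 measured genes were lower and 5.09% higher. The lower members were Ifit3, Cmpk2, Parp14, Irgm1, Xaf1 and Igtp, and the higher ones Isg20 and Irf7. The median log2 difference was -0.31 over the members and -0.01 over all genes. Below 0 were 24 of 34 members and 50.7% of all genes, and 10 of 34 members were below the 5th percentile of all genes. With the normexp correction 2 members were lower, Ifit3 and Irgm1, and 1 was higher. The shares of all genes under that correction are not given here, so these counts have no background beside them. In RNA from whole cultures, fewer cells expressing a gene and less RNA per cell cannot be told apart.

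**Figure D2:**
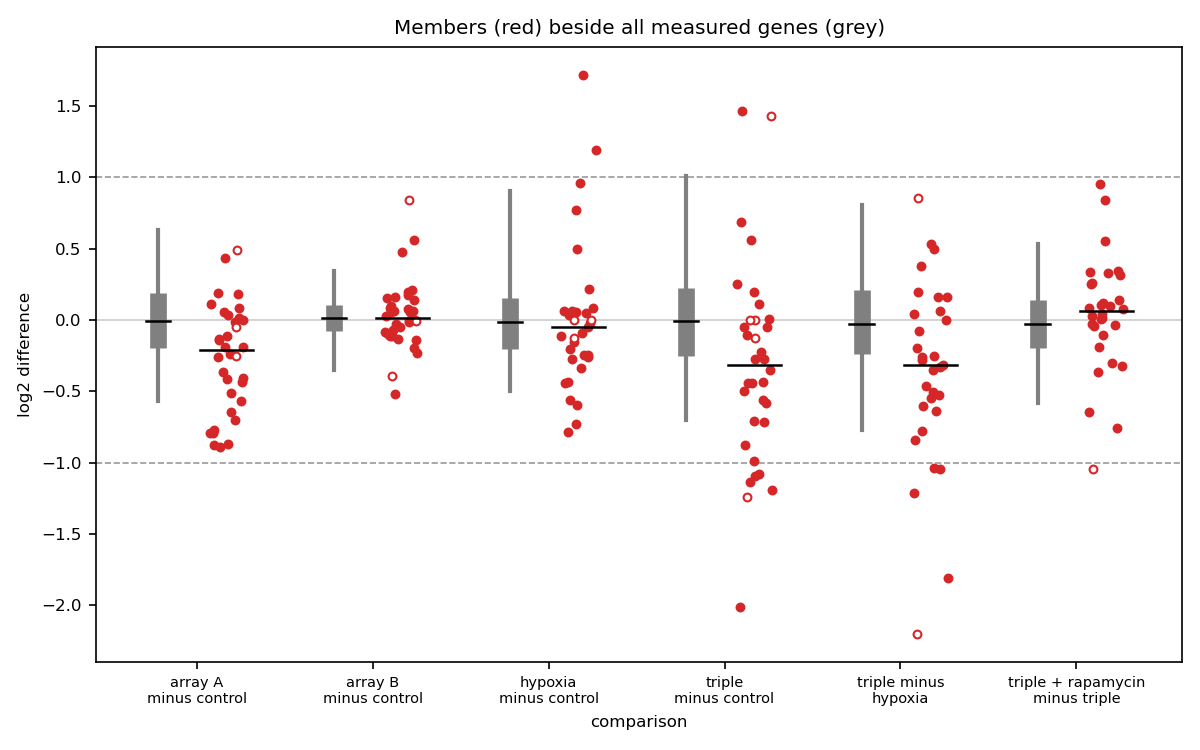
Log2 difference (vertical axis) in the 6 comparisons (horizontal axis). Red points are the measured members, open where the value is a bound, and grey boxes and lines give the 25th to 75th and the 5th to 95th percentiles of all measured genes, with black bars for the medians and dashed lines at 2-fold. The members' median lies at -0.31 in both triple stimuli comparisons and at -0.21 on array A, against -0.01 to -0.03 for all genes, and at 0.01 on array B.

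Ifit3, whose product supports the binding of viral RNA by its relative IFIT1, fell most (probe on mm9 chromosome 19, 34663105 to 34663164). It had a level of -1.11 in triple stimuli, -0.27 with rapamycin, 0.70 in hypoxia, 0.03 on array A, 0.79 on array B and 0.90 in control. Array B, hypoxia and control lay close together, array A and the rapamycin array lower, and triple stimuli lowest. Triple stimuli was 4.03-fold lower than control and 3.50-fold lower than hypoxia, and both differences stayed above 2-fold under every alternative tried, between -2.03 and -1.58 and between -1.87 and -1.36 on the log2 scale.

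The promoters of the 4 members that were at least 2-fold different and hold the ISRE core are shown here, because the element that receives the interferon signal can be read in them. Each line gives the 250 bases before the transcription start, 5′ to 3′ on the gene's strand, from RefSeq (GRCm38.p6), with every match to the core in capitals. The core is 2 copies of GAAA with any 2 bases between them, or 2 copies of TTTC so spaced where it is read on the opposite strand.
Ifit3: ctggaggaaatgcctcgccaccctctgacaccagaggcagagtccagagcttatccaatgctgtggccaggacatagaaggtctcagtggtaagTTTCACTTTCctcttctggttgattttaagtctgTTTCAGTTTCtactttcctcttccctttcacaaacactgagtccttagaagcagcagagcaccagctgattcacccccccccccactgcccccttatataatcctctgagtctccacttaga
Gbp2: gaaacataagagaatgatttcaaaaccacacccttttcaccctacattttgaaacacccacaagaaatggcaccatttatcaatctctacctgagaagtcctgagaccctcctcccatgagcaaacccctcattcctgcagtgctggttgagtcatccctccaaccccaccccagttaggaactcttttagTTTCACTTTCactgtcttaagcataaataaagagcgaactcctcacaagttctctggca
Igtp: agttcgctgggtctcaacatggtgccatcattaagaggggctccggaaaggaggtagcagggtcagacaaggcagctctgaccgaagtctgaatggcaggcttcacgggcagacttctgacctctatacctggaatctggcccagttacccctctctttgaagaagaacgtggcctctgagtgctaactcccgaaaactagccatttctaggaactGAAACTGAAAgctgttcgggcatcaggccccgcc
Irgm1: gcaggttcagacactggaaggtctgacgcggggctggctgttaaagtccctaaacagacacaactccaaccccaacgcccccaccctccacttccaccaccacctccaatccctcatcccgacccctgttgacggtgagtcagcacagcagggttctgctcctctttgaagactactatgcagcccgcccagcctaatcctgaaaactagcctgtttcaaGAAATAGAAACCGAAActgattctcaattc
The windows lie at chr19:34583279-34583528 (plus strand), chr3:142620413-142620662 (plus), chr11:58199306-58199555 (plus) and chr11:48871421-48871670 (minus). Ifit3 has a pair of separate cores, which begin at -156 and -122 from the start. Gbp2 has 1 core at -59 and Igtp 1 at -34, and Irgm1 has overlapping cores at -30 and -24.

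The other members of the IFIT and ISG15 group went apart. Ifit2, which also binds RNA and restrains translation, was also lowest in triple stimuli, at -0.89 in triple stimuli, -0.57 with rapamycin, -0.29 in hypoxia, -0.37 on array A, 0.02 on array B and -0.18 in control. Isg15, the ubiquitin-like protein that is attached to other proteins during the response (mm9 chromosome 4, 155573649 to 155573708), lay just inside 2-fold, with a log2 difference of -0.99 for triple stimuli minus control. It stood at 0.67 in triple stimuli, 0.35 with rapamycin, 0.93 in hypoxia, 1.22 on array A, 1.46 on array B and 1.66 in control. The 3 arrays at 1% oxygen were all lower than the 3 at 20%, and the rapamycin array was the lowest of all, 1.31 below control. Its spot lies in the first 64 rows of the array, and centring the arrays in bands of rows changed no count of members by more than 1.5 times.

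Isg20, an exonuclease that degrades single-stranded RNA, rose instead (mm9 chromosome 7, 86065136 to 86065195). It was at 2.89 in triple stimuli, 2.13 with rapamycin, 3.14 in hypoxia, 1.48 on array A, 1.48 on array B and 1.42 in control. The 3 arrays at 20% oxygen agreed to within 0.1, and the 3 at 1% were all higher. Hypoxia was 3.29-fold and triple stimuli 2.77-fold higher than control. A second, dimmer probe also had the 3 arrays at 1% oxygen highest, with 1.21 in triple stimuli, 0.53 with rapamycin, 1.36 in hypoxia, -0.31 on array A, -0.10 on array B and -0.23 in control.

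Hypoxia alone had 2 of 33 measured members at least 2-fold higher (6.06%) and 0 lower, against 4.41% and 0.461% of 17805 genes, a share of higher members near the background. Besides Isg20 the higher member was Samd9l, a restriction factor for poxviruses that also limits cell growth (mm9 chromosome 6, 3322520 to 3322579). Samd9l was at 4.44 in triple stimuli, 4.25 with rapamycin, 4.94 in hypoxia, 2.98 on array A, 3.83 on array B and 3.75 in control. The 3 arrays at 1% oxygen were the highest and array A was the lowest. Hypoxia was 2.28-fold higher than control, and its second probe ran in parallel, with 3.51 in triple stimuli, 3.28 with rapamycin, 3.91 in hypoxia, 1.99 on array A, 2.83 on array B and 2.81 in control.

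In the split of the 3 arrays at 1% oxygen against the 3 at 20%, 2 of 36 members were higher without overlap (5.56%) and 6 lower (16.7%), where 8.21% of 19149 genes were higher and 13.5% lower. The shares were near those of all genes. The higher ones were Isg20, with a gap of 0.65 between the groups, and Samd9l, with 0.42. The lower ones were Isg15 with a gap of 0.30, Irgm1 with 0.21, and Irf9, B2m, Ifnar2 and Ifi35, whose gaps of 0.04 to 0.09 were within the scatter of repeated spots. Counting wider gaps only left 2 higher and 2 lower members, against 4.75% and 6.7% of all genes. B2m, the light chain of class I antigen-presenting molecules, stood at 4.75 in triple stimuli, 4.83 with rapamycin, 4.75 in hypoxia, 5.05 on array A, 4.91 on array B and 5.02 in control.

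**Figure D3:**
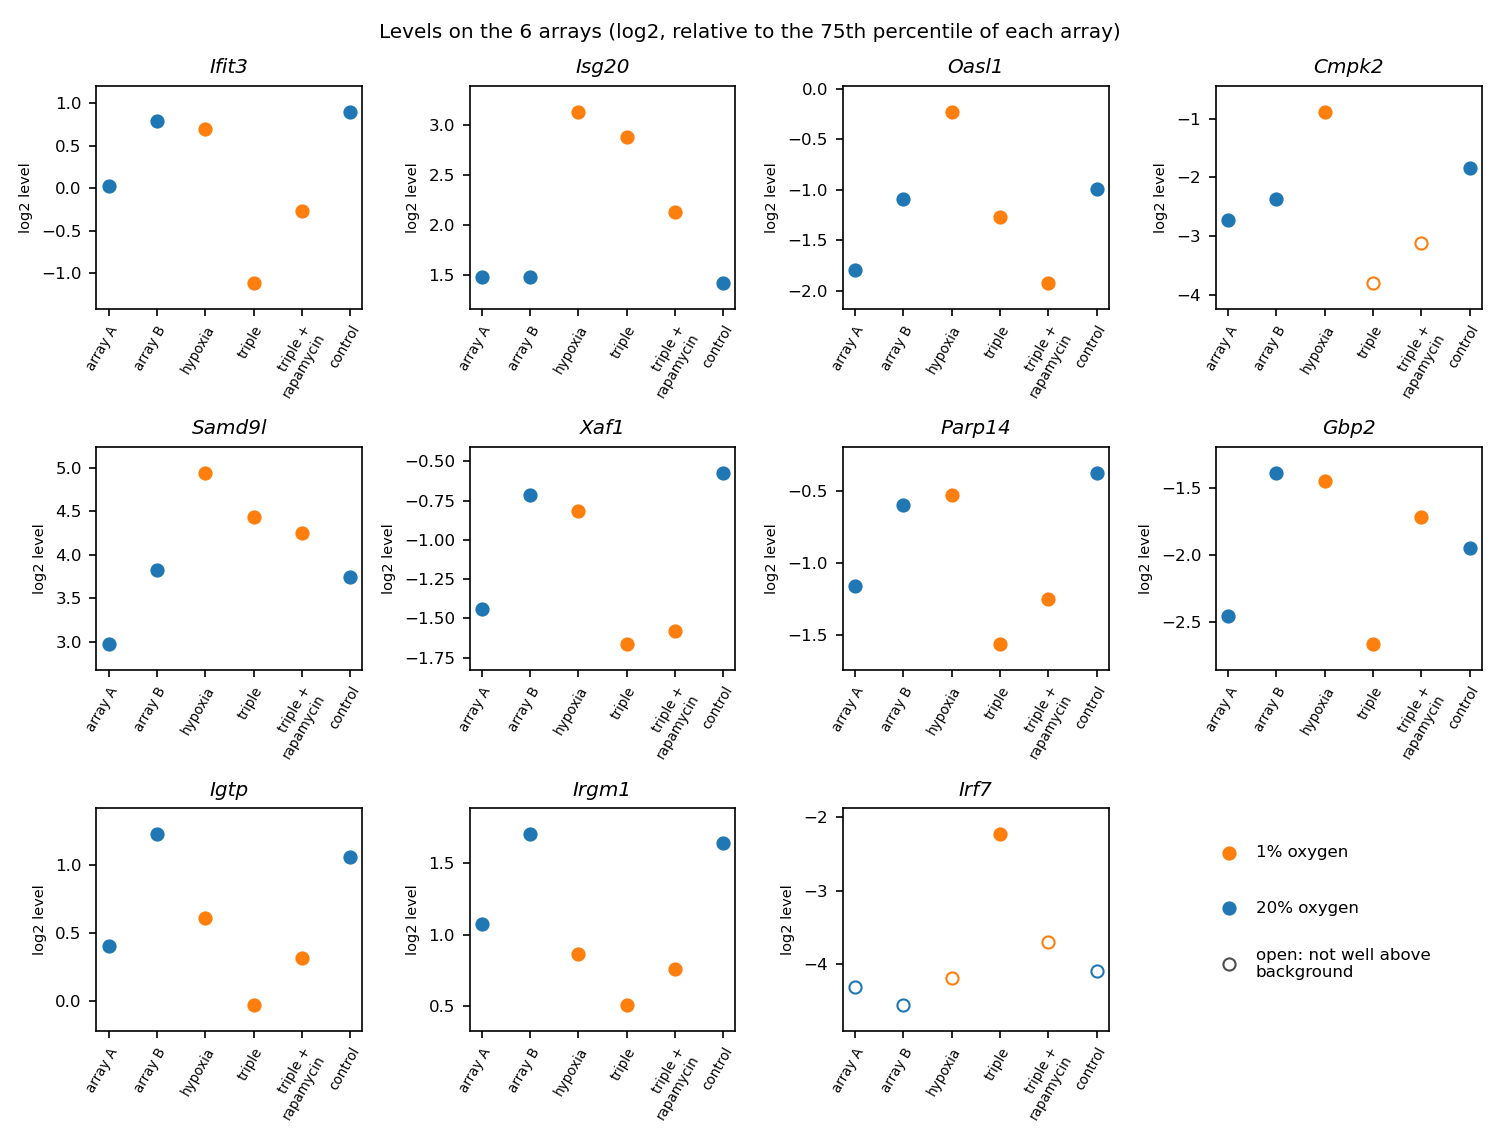
Log2 level (vertical axes, a scale of its own in each panel) on the 6 arrays (horizontal axes) for the 11 members at least 2-fold different in a comparison. Orange points are arrays at 1% oxygen and blue points arrays at 20%, and open points are not well above background. Ifit3 is lowest in triple stimuli at -1.11, and Isg20 and Samd9l are highest in hypoxia at 3.14 and 4.94.

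Among the OAS, MX and other antiviral effectors, Oasl1 and Cmpk2 were highest in hypoxia and at least 2-fold lower in triple stimuli than there. Oasl1, which in mouse holds back translation of Irf7, was at -1.27 in triple stimuli, -1.92 with rapamycin, -0.23 in hypoxia, -1.79 on array A, -1.09 on array B and -0.997 in control. Hypoxia was thus the highest array, 0.77 above control, and triple stimuli was 2.06-fold lower than hypoxia. Cmpk2, a mitochondrial nucleotide kinase whose gene neighbours Rsad2 (mm9 chromosome 12, 27162935 to 27162994), was at -0.88 in hypoxia, -2.73 on array A, -2.36 on array B and -1.84 in control, and was dim in triple stimuli (-3.80) and with rapamycin (-3.12). Triple stimuli was at least 4.60-fold lower than hypoxia and at least 2.36-fold lower than control. The difference from hypoxia stayed above 2-fold under every alternative that gave a value. That from control was -0.34 with the normexp correction and -0.82 over the mean of both Cmpk2 probes. The second probe was well above background on 3 arrays, at -1.23 in hypoxia, -2.64 on array B and -2.69 in control. It put hypoxia 1.45 above control, against 0.96 on the brightest probe.

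Other effectors stayed within 2-fold. Bst2, or tetherin, which holds budding virus at the cell surface, was highest on array A at 4.55, with 4.06 in triple stimuli, 3.68 in hypoxia, 4.03 on array B, 3.69 with rapamycin and 4.11 in control. Adar, the editing enzyme that marks the cell's own double-stranded RNA, was highest in triple stimuli on its brightest probe, at 2.30, with 1.80 in hypoxia, 1.92 on array A, 1.90 on array B, 1.998 with rapamycin and 1.74 in control. The second Adar probe, also well above background throughout, was at 1.73 in triple stimuli, 1.70 with rapamycin, 1.14 in hypoxia, 1.77 on array A, 1.39 on array B and 1.24 in control, with the 3 arrays that share the stimulus of array A well above the others. Ifitm2, which blocks the entry of enveloped viruses, formed separate groups: 1.90 on array A, 1.83 in triple stimuli and 1.80 with rapamycin, against 2.32 on array B, 2.29 in hypoxia and 2.26 in control. Oas1a, an enzyme of the oligoadenylate pathway that activates RNase L, was measured at -2.77 on array A and -2.95 in control and was dim on the other 4. Usp18, the protease that removes ISG15, was at -2.59 on array B, at least 0.84 above control, and dim elsewhere.

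Of the sensors, 4 of 6 were measured, and none was 2-fold different. Ddx58, which encodes the RNA sensor RIG-I, was at 0.51 in triple stimuli, 0.61 with rapamycin, 0.82 in hypoxia, 0.68 on array A, 1.31 on array B and 1.38 in control, and came closest with -0.88 in triple stimuli. Ifih1, which encodes the related sensor MDA5, was at -1.85 in triple stimuli, -1.52 with rapamycin, -1.33 in hypoxia, -1.41 on array A, -1.08 on array B and -1.28 in control. Trim21, an intracellular receptor for antibodies, was at -2.28 in triple stimuli, -2.24 with rapamycin, -1.99 in hypoxia, -2.06 on array A, -1.57 on array B and -2.05 in control. Array B was the highest array for Trim21 and triple stimuli the lowest. Trim25, the ubiquitin ligase that activates RIG-I, varied by little on its brightest probe, between 5.59 and 5.70, but 31 of the 60 bases of that probe are a TG repeat. Its other probe ranged between 4.19 in hypoxia and 4.57 on array A.

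The GTPases of cell-autonomous defence, which attack membranes around intracellular parasites and bacteria, all had negative differences in triple stimuli against control where both arrays measured them, Gbp2 by less than 2-fold. Igtp (mm9 chromosome 11, 58020927 to 58020986), with the promoter shown above, is read by 10 spots per array. Its mean level was -0.02 in triple stimuli, 0.32 with rapamycin, 0.61 in hypoxia, 0.41 on array A, 1.23 on array B and 1.05 in control, with SDs between spots of 0.04 to 0.11. In triple stimuli and on array B, 1 spot each was marked as an outlier and left out. The 9 unmarked spots in triple stimuli ran between -0.20 and 0.12 and the 10 in control between 0.93 and 1.21, without overlap. With marked spots kept, the difference between these 2 arrays was -1.02. Triple stimuli was 2.11-fold lower than control, and 0.95 lower on the log2 scale with the normexp correction.

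Irgm1, which regulates the other GTPases of its family (mm9 chromosome 11, 48679069 to 48679128), was at 0.51 in triple stimuli, 0.76 with rapamycin, 0.86 in hypoxia, 1.08 on array A, 1.71 on array B and 1.65 in control. Array B and control were the highest, and triple stimuli was 2.20-fold lower than control. A second Irgm1 probe also had array B (-0.14) and control (-0.45) highest, with -1.25 in triple stimuli, -0.99 with rapamycin, -1.35 in hypoxia and -1.13 on array A, and triple stimuli minus control over the mean of both probes was -0.97, just under 2-fold. Gbp2, a guanylate-binding protein, was at -2.66 in triple stimuli, -1.71 with rapamycin, -1.45 in hypoxia, -2.46 on array A, -1.39 on array B and -1.95 in control. Triple stimuli was 2.32-fold lower than hypoxia for Gbp2, a difference of -0.63 with the normexp correction.

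The 5 measured genes of the further induced group were all below 0 in triple stimuli against control. Parp14, a mono-ADP-ribosyltransferase (mm9 chromosome 16, 35832992 to 35833051), was at -1.56 in triple stimuli, -1.25 with rapamycin, -0.52 in hypoxia, -1.16 on array A, -0.60 on array B and -0.37 in control. Xaf1, which opposes the apoptosis inhibitor XIAP (mm9 chromosome 11, 72122169 to 72122228), was at -1.66 in triple stimuli, -1.58 with rapamycin, -0.82 in hypoxia, -1.44 on array A, -0.71 on array B and -0.57 in control. For both genes array A and the 2 triple stimuli arrays formed a low group and the other 3 a high group. Against control, triple stimuli was 2.29-fold lower for Parp14 and 2.13-fold lower for Xaf1, and the log2 differences were -0.73 and -0.64 with the normexp correction. The mean over both Xaf1 probes differed by -0.21, where the second probe was dim on all arrays.

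Dtx3l and Parp9, whose products form a ubiquitin ligase complex, had smaller differences. Dtx3l was at -0.61 in triple stimuli, -0.06 with rapamycin, -0.07 in hypoxia, -0.53 on array A, -0.13 on array B and -0.12 in control. Parp9 stood at 0.00 in triple stimuli, 0.12 with rapamycin, 0.33 in hypoxia, -0.06 on array A, 0.38 on array B and 0.35 in control. Ifi35, a regulator of innate signalling, was lowest in hypoxia, at 1.06, with 1.52 on array A, 1.60 on array B, 1.22 in triple stimuli, 1.47 with rapamycin and 1.66 in control.

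Triple stimuli was also set against hypoxia alone, which asks what the other stimuli add at the same oxygen. Of 31 measured members, 5 were at least 2-fold lower (16.1%) and 0 higher, against 3.03% and 3.51% of 17079 genes. They were Cmpk2, Ifit3, Gbp2, Oasl1 and Parp14, of which Cmpk2 and Ifit3 stayed 2-fold lower with the normexp correction. The members' median was -0.31, against -0.03 over all genes. Below 0 were 21 of 31 members and 53.5% of all genes. Irf3 (0.54), Adar (0.50) and Bst2 (0.38) had the highest measured differences.

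No member was 2-fold different on array A, whose median over 34 members was -0.21, against -0.01 over all genes. At that threshold 1.57% of 17824 genes were higher and 0.903% lower. The members lay low together: 24 of 34 were below 0, against 51.4% of all genes. Moreover, 9 of 34 were below the 5th percentile of all genes and 0 above the 95th. The lowest were Cmpk2 (-0.89), Ifit3 (-0.87) and Xaf1 (-0.87), and the highest measured on both arrays were Bst2 (0.44), Adar (0.19) and Oas1a (0.18). On array B also none was 2-fold different, where 0.308% of 17510 genes were higher and 0.28% lower. Its members' median was 0.01 and that of all genes 0.02, and 16 of 34 members and 43.1% of all genes were below 0. Gbp2 (0.56), Trim21 (0.48) and Ifit2 (0.21) had the highest measured differences on array B, and Cmpk2 (-0.52), Parp14 (-0.23) and Isg15 (-0.20) the lowest. The second Cmpk2 probe differed by 0.04 there.

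The arrays were also split by stimulus, a split chosen after values were seen. Array A, triple stimuli and triple stimuli with rapamycin, which share the stimulus of array A, were set against array B, hypoxia and control, which lack it. Of 36 members, 14 were lower without overlap (38.9%) and 1 higher (2.78%), where 14.6% of 19149 genes were lower and 11% higher. The 14 were Ifit2, Ifit3, Oasl1, Cmpk2, Ifitm2, Ddx58, Ifih1, Trim21, Xaf1, Parp9, Parp14, Igtp, Stat2 and Ifnar1, and the higher one was Adar. Counting only gaps wider than the scatter of repeated spots left 10 lower members and 0 higher, against 8.21% and 6.69% of all genes. Each gene counts by its brightest probe here, and the second Adar probe had a wider gap than the one counted.

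The widest gaps were 0.67 for Ifit3, 0.62 for Xaf1, 0.56 for Parp14, 0.37 for Cmpk2 and 0.36 for Ifitm2. The mean over the 3 arrays with the stimulus was below that over the 3 without it by 1.25 log2 units for Ifit3, 0.86 for Xaf1 and 0.83 for Parp14. Split instead by the stimulus of array B, 3 members were higher without overlap (Trim25, Irf1 and Irf3, 8.33% of 36) and 0 lower, against 2.42% and 2.2% of all genes, and all 3 gaps were within the scatter of repeated spots. Counting wider gaps only left 0 members on either side, against 0.642% of genes higher and 0.684% lower. In both splits the 2 triple stimuli arrays stand on the same side, at 1% oxygen.

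**Figure D4:**
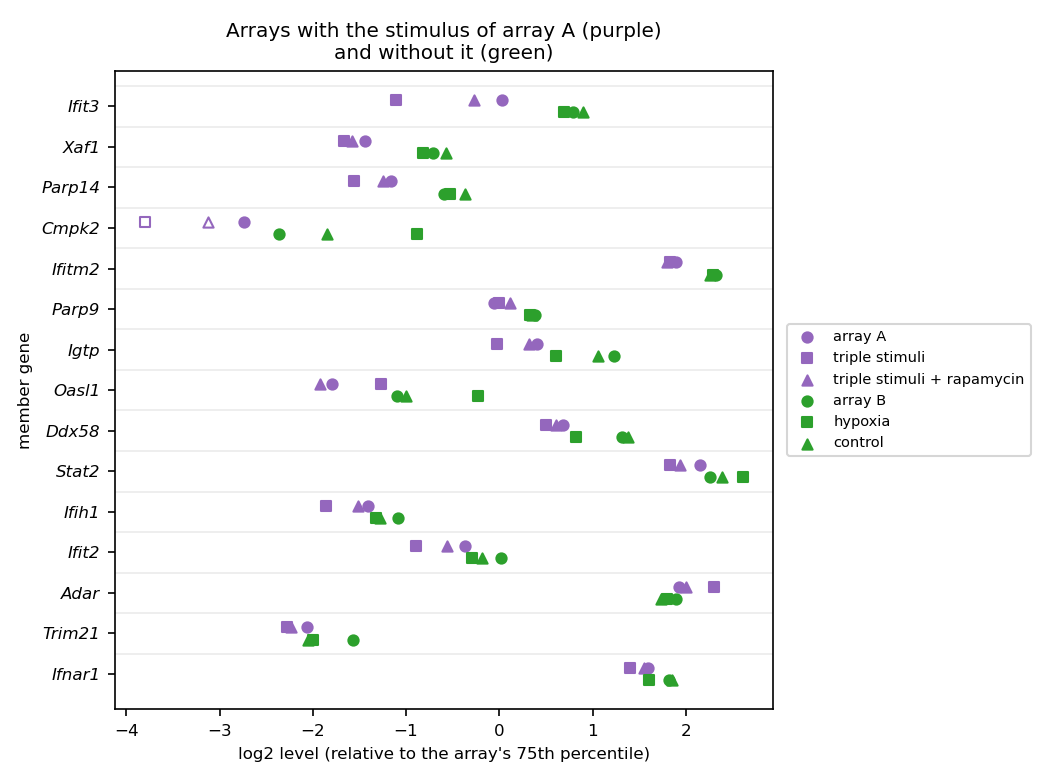
Log2 levels (horizontal axis) of the 15 members (vertical axis) that split without overlap between the arrays with the stimulus of array A (purple, upper row of each gene) and those without it (green, lower row), ordered by the gap. Open symbols are not well above background. Ifit3 has the widest gap, 0.67, and Adar alone is higher in the purple arrays.

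Rapamycin was compared within the triple stimuli. Of 30 measured members, 0 were at least 2-fold higher and 1 lower (3.33%), where 1.94% and 2.14% of 17260 genes were, and the 1 was Irf7. The median was 0.06 over the members and -0.03 over all genes. Of the 30 members 19 were above 0 and 11 below, where 54.7% of all genes were below 0. The largest positive differences were for Gbp2 (0.95), Ifit3 (0.84) and Dtx3l (0.55), and the most negative measured ones for Isg20 (-0.76), Oasl1 (-0.65) and Bst2 (-0.37). Against control, the rapamycin array was still lower for Ifit3 (-1.17), Isg15 (-1.31), Xaf1 (-1.01) and Cmpk2 (-1.28, a bound). Gbp2 (0.24) and Dtx3l (0.06) were near or above control. The share of all genes is not given for the rapamycin array against control. The triple stimuli array stands in the comparison with control and in that with rapamycin, so a low value on it lowers one difference and raises the other.

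Both motifs were searched in RefSeq promoters of 38 members, 250 bases before to 50 after each start. The ISRE core, on either strand, was in the windows of 18 members (47.4%), against 3.99% of 27025 genes, and in 3.44% of 32851 windows. The GAS element TTCNNNGAA, which reads the same on both strands, was in those of 11 members (28.9%), against 9.55% of genes, and 4 members held both, Oas1a, Bst2, Ifitm3 and Igtp. The members were chosen as genes of the interferon response, which acts through these elements. A share above that of all genes therefore comes with the choice of members and is not a result of these arrays. Overlapping matches were each counted. Parp14, Mx1, Mx2, Dhx58, Parp9, Oas2, Zbp1 and Usp18 were not matched in the promoter table. Of the 11 members at least 2-fold different, 10 were in the table and 4 held the core, those printed above.

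In triple stimuli against control, 1.74% of all genes were at least 2-fold lower, 5.09% higher and 50.7% below 0. The 14 measured members with the core had a median log2 difference of -0.57 there, with 13 below 0 and 3 at least 2-fold lower. The 18 without the core had a median of -0.02, with 9 below 0, 2 lower and 2 higher. They include the 3 receptors and the factors Irf1, Irf3, Irf7 and Irf9, so the core and the role of a gene cannot be told apart here. On array A the medians were -0.25 over 15 members with the core and -0.14 over 17 without it, and in hypoxia -0.17 over 14 and 0.05 over 17. On the arrays with the stimulus of array A, 7 of 15 measured members with the core and 5 of 18 without it were lower without overlap. In this split, chosen after values were seen, 14.6% of all genes were lower. These values describe letters in a window, and whether any factor bound there was not tested.

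**Figure D5:**
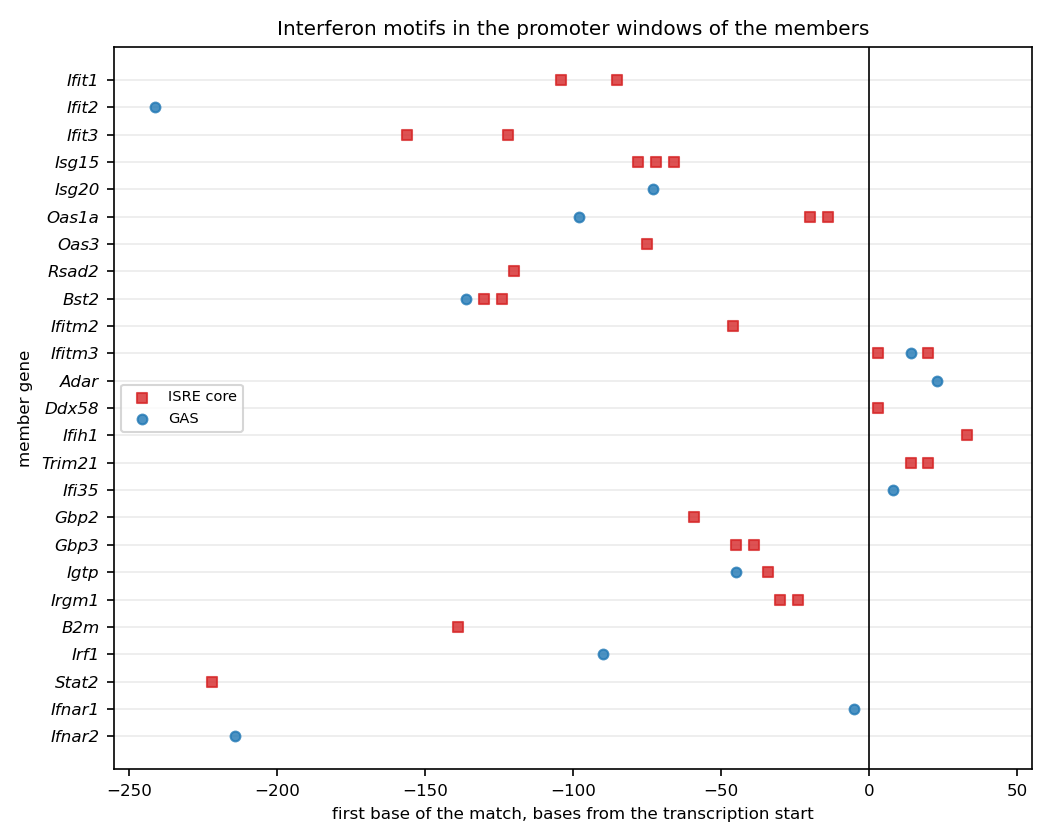
First base of each ISRE core (red squares) and GAS element (blue circles), in bases from the transcription start (horizontal axis, 0 at the start), for the 25 members (vertical axis) with either motif. Ifit3 has cores at -156 and -122, Irgm1 at -30 and -24, Igtp at -34 and Gbp2 at -59.

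Beside the members, 130 other genes of the interferon pathways on the arrays (of 133 listed) were examined, 81 of them well above background on all 6 arrays and 29 on none. In triple stimuli against control, 6 of 98 measured were at least 2-fold lower and 2 higher, with a median of -0.11, where 1.74% of all genes were lower and 5.09% higher. In the split by the stimulus of array A, 20 of 101 (19.8%) were lower without overlap and 9 higher (8.91%), near the 14.6% and 11% of all genes. Ifit3b (array name I830012O16Rik), a near-identical neighbour of Ifit3, differed by -0.98 on array A, -0.10 in hypoxia, -2.31 in triple stimuli against control and 1.29 with rapamycin against triple stimuli. Its probe and that of Ifit3 share no run longer than 8 bases, but whether each also binds the transcript of the other gene was not tested.

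Uba7, the enzyme that activates ISG15 for conjugation, was -1.43 in triple stimuli against control and -1.54 against hypoxia. Irgm2, a further GTPase of the Irgm1 family, was -1.35 and Parp12, a relative of Parp14, -1.15 in triple stimuli against control. In the same comparison Parp10 was at -0.31, Iigp1 at -0.11 and Gbp5 at 0.53. Nod1, a sensor of bacterial cell wall, was -1.12 on array A and -1.90 in triple stimuli, each against control. Higher genes were Ifi204, a DNA sensor of the IFI16 family, at 1.31 in hypoxia and 1.27 in triple stimuli, and Gbp7. Gbp7, a further guanylate-binding protein, was well above background on 2 arrays, hypoxia and triple stimuli. It was at least 2.11 and at least 2.21 above control there, and with rapamycin at least 1.82 below triple stimuli. Socs1, the inhibitor of interferon receptor signalling, was -1.03 in hypoxia and 0.75 in triple stimuli against control, which is 1.78 between triple stimuli and hypoxia, and the chemokine gene Ccl2 was 1.57 between triple stimuli and hypoxia.

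Markers of cell types were read on the same arrays. Of 20 proximal tubule genes, 7 were well above background on all 6 arrays, among them Lrp2, Cubn, Aqp1, Ggt1, Pax8 and Cdh6, and 12 on none, including Slc34a1, Slc5a2, Hnf4a and Gatm. Of 8 measured, 4 were lower without overlap on the arrays with the stimulus of array A and 0 higher, with Lrp2, Aqp1 and Cdh6 among the 4. In this split, chosen after values were seen, 14.6% of all genes were lower and 11% higher. In triple stimuli against control 4 of 8 were below 0, with a median of -0.12. At least 2-fold lower were 2 of 8, Lrp2 (-1.10) and Cdh6 (-1.01), and 0 were higher. Of all genes 1.74% were lower and 5.09% higher. Aqp1 was at -0.93, while Ggt1 (0.76) and Pax8 (0.39) were above 0. The summed linear level of the list, which the brightest probes dominate, was 27.0 on array A, 27.1 in triple stimuli and 22.6 with rapamycin, against 40.2 on array B, 45.0 in hypoxia and 36.8 in control. The part of this in the members' differences was not tested. Of 11 leukocyte markers, 6 were well above background on all arrays, but Ptprc, Adgre1, Lyz2 and Ms4a1 were on none, and the summed level of the list was 135 to 154 in the 5 stimulus conditions and 130 in control. Of the 6, Cd68 and Siglech were higher without overlap in the split by the stimulus of array A, Cd68 at 1.05 on array A, 0.52 in triple stimuli and -0.27 with rapamycin, against -0.82 on array B, -0.57 in hypoxia and -0.87 in control, Csf1r was lower, and Itgam, Cd3e and Nkg7 overlapped. None of 6 fibroblast markers and 1 of 5 endothelial markers (Kdr) were well above background on every array.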

How the data were processed

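RNA of 6 cultures, 1 per condition, was read on 6 one-colour (Cy3) arrays. The authors used Agilent Feature Extraction 10.7.3.1, as the file headers and processing notes of the submitters state. Per the file headers, this software removed background, detrended the arrays and put a surrogate value at spots as dim as background. The deposited scanner files give the resulting linear intensity of each spot, unscaled between arrays. In the deposited value table each probe has a ratio, which its values show to be that signal over the 75th percentile of its array, uncentred, with column medians of 0.0505 to 0.0562. It served as an alternative. The scanner file labelled high glucose matched the table's high FFAs column (SD of the log2 difference 2.87e-07), and the reverse pair matched at 2.89e-07.

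From the intensities, log2 signal minus the log2 75th percentile of non-control spots was computed (Python 3.11.15, numpy 2.4.6, pandas 2.3.3). Spots marked as outliers by the scanner software were left out, which removed 13 of 55681 probes. A gene is read by its brightest probe on average. A comparison took in a gene well above background on 1 array or both, and a dim level under the floor, the lowest well-above-background level of that array (-3.65 to -3.08), was set to it, which makes the difference a bound. The script was tested on simulated data. With 1 array per condition no test was run, and the number of arrays limits the precision. Alternatives used limma 3.58.1 (R 4.3.3) for normexp with an offset of 50 and for quantile normalization.

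Members and gene lists were chosen with earlier results of these data known. Levels on all arrays are given for members at least 2-fold different in any comparison, receptors, transcription factors, the 3 highest and 3 lowest per comparison, and some others of each role. Pathway genes named are those well above background on all arrays and at least 2-fold different, and the ligands. Also named are Gbp7, well above background on 2 arrays, and Parp10, Iigp1 and Gbp5, which were under 2-fold in every comparison. Probe positions are on mm9 as the files give them, with no exon annotation used here. Promoters are on GRCm38.p6. A few further marker and pathway genes are not reported here.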

Additional observations from a re-analysis of the deposited data

How the results depend on the processing

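Each of 24 counts and medians was recomputed under 10 alternatives, 1 of them added after the data were seen (leaving out any probe with a marked spot), and 16 single differences likewise. Of the recomputed counts and medians, 224 stayed within the limits set for them and 16 did not. Of the recomputed single differences, 143 kept direction and side of 2-fold, 12 kept direction only and 0 reversed. With normexp, 2 members were lower and 1 higher in triple stimuli against control, 2 were lower against hypoxia and 0 were lower with rapamycin. With genes bright on both arrays only, 1 was higher in triple stimuli against control, with a median of -0.43, and 0 were lower with rapamycin. With the measured level of dim spots in place of the bound, 1 member was lower on array A, 1 lower in hypoxia, 1 higher in triple stimuli against hypoxia and 2 lower in the split by the stimulus of array B, and the median in triple stimuli against control was -0.44. With the mean over all probes of a gene, 4 were higher and 1 lower in hypoxia, 1 was higher with rapamycin and 1 was higher in the split by the stimulus of array B. The cause was not tested. The 14 members lower with the stimulus of array A ranged between 10 and 15 over the alternatives. The shares of all genes called under the alternatives are not given here, so these counts of members have no background beside them. Scaling on the median of probes bright on all arrays moved an array by at most 0.03 on the log2 scale.

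No paired analysis was possible because each condition had 1 array. Values near background, below about -3 on the level scale, carry bounds only, and 10 of the 46 members gave no value at all.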
